A study of Mus musculus with 12 samples.

Results

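Fibroblasts of the mouse ear spent 48 h on alginate hydrogels before their RNA was sequenced, and 10 genes that govern the G1 phase of the cell cycle were followed across the 12 samples. The genes were taken by name. They are the D-type cyclins Ccnd1, Ccnd2 and Ccnd3, cyclin E1 (Ccne1), the CIP/KIP inhibitors Cdkn1a (p21), Cdkn1b (p27) and Cdkn1c (p57), and the INK4 inhibitors Cdkn2a (p16 and the alternative reading frame protein p19), Cdkn2b (p15) and Cdkn2c (p18). All 10 were among the 33246 genes of the count table, and all 10 passed the filter on low counts that left 14542 genes to be tested. The 4 groups of 3 samples crossed stiffness with stress relaxation, with elastic and slowly relaxing viscoelastic gels made at both 2 and 20 kPa. Elastic gels were crosslinked covalently and viscoelastic gels ionically, so the crosslinker and the relaxation cannot be told apart. Within each kind of gel stiffness was set by the crosslinker concentration, which was calcium in the viscoelastic gels. Stiffness and crosslinker dose therefore cannot be told apart either, and the same holds for their interaction with relaxation. Every gel carried RGD, a peptide to which cells adhere. All groups held primary fibroblasts from ears of C57BL/6 mice of both sexes aged 1 month, expanded in medium with serum and antibiotics, used at passage 2 and seeded at 500000 cells, and the labels give no genetic change or added agent. The samples of a group are called biological replicates, but no source used here ties them to separate animals or preparations, so p-values measure the spread between these samples.

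Cells pass from G1 into S phase when cyclin-dependent kinases phosphorylate the retinoblastoma protein (RB) and so free the E2F factors, which transcribe genes for DNA synthesis and the gene of cyclin E. D-type cyclins, made in response to growth factors and adhesion, activate CDK4 and CDK6, and cyclin E activates CDK2. INK4 proteins bind CDK4 and CDK6, while CIP/KIP proteins bind cyclin-CDK complexes more widely, and in fibroblasts both families are known for arrest by contact, by damage and by senescence. Much of this control acts on the proteins, which were not measured here.

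Total counts ran from 36626221 to 43612804 per sample. All 10 fibroblast markers were present, with a summed level of 23733 to 29275 CPM (counts scaled to a fixed library size) in a sample. Col2a1, Acan and Comp were also high, with means of 2839, 1139 and 640.4 CPM. They were listed as markers of chondrocytes, the cells of ear cartilage. Matn1, of the same list, was at 0.0276 CPM. The summed chondrocyte markers lay between 4167 and 5406 CPM on soft (2-kPa) elastic, 4123 and 5285 on soft viscoelastic, 3916 and 3966 on stiff (20-kPa) elastic and 4219 and 5398 on stiff viscoelastic gels. Keratinocyte, endothelial, leukocyte, melanocyte, Schwann cell and muscle markers summed to at most 10.6 CPM per list in any sample, and the melanocyte gene Tyr was at 0. Of these low lists, 2 of 4 endothelial markers were called higher on viscoelastic gels at 2 kPa (8.77% of all tested genes were). The same count was higher at 20 against 2 kPa on elastic gels (6.81% of all). Of 3 tested leukocyte markers, 1 was lower on viscoelastic gels at both stiffnesses (11.1% of all at 2 kPa, 16.1% at 20 kPa). Of the 2 tested muscle markers, 1 was called higher at 20 than at 2 kPa on both kinds of gel. Of all tested genes 6.81% were on elastic and 1.58% on viscoelastic gels. The summed muscle markers lay between 4.74 and 6.94 CPM on soft and between 7.89 and 10.6 CPM on stiff viscoelastic gels. The part of these lists in the results was not tested. In bulk RNA fewer cells of a type and less RNA per cell cannot be told apart.

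Per kilobase of exon, Ccnd2 was the most abundant of the 10 transcripts, at a mean of 75.2 CPM per kb over the 12 samples. Cdkn1a followed at 53.3 and Ccnd1 at 39.1 CPM per kb. Cdkn1b and Cdkn2c were close together, at 27.8 and 27.1 CPM per kb. Cdkn1c stood at 13.3, Ccnd3 at 7.44, Ccne1 at 6.76, Cdkn2b at 5.38 and Cdkn2a at 3.11 CPM per kb. The length used merges the exons of all annotated transcripts of a gene. It was 8775 bases over 21 transcripts for Ccnd3 and 1390 bases over 1 for Cdkn2b. Where cells use shorter transcripts, the level per kilobase, the rank and the family share come out too low. Cdkn2a thus ranked at the 40.6th percentile of the tested genes with a known length and Ccnd2 at the 96.8th. Raw counts per sample ran from 24202 to 34465 for Ccnd2 but only from 111 to 183 for Cdkn2a and from 240 to 370 for Cdkn2b, where counting error adds most.

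**Figure D1:**
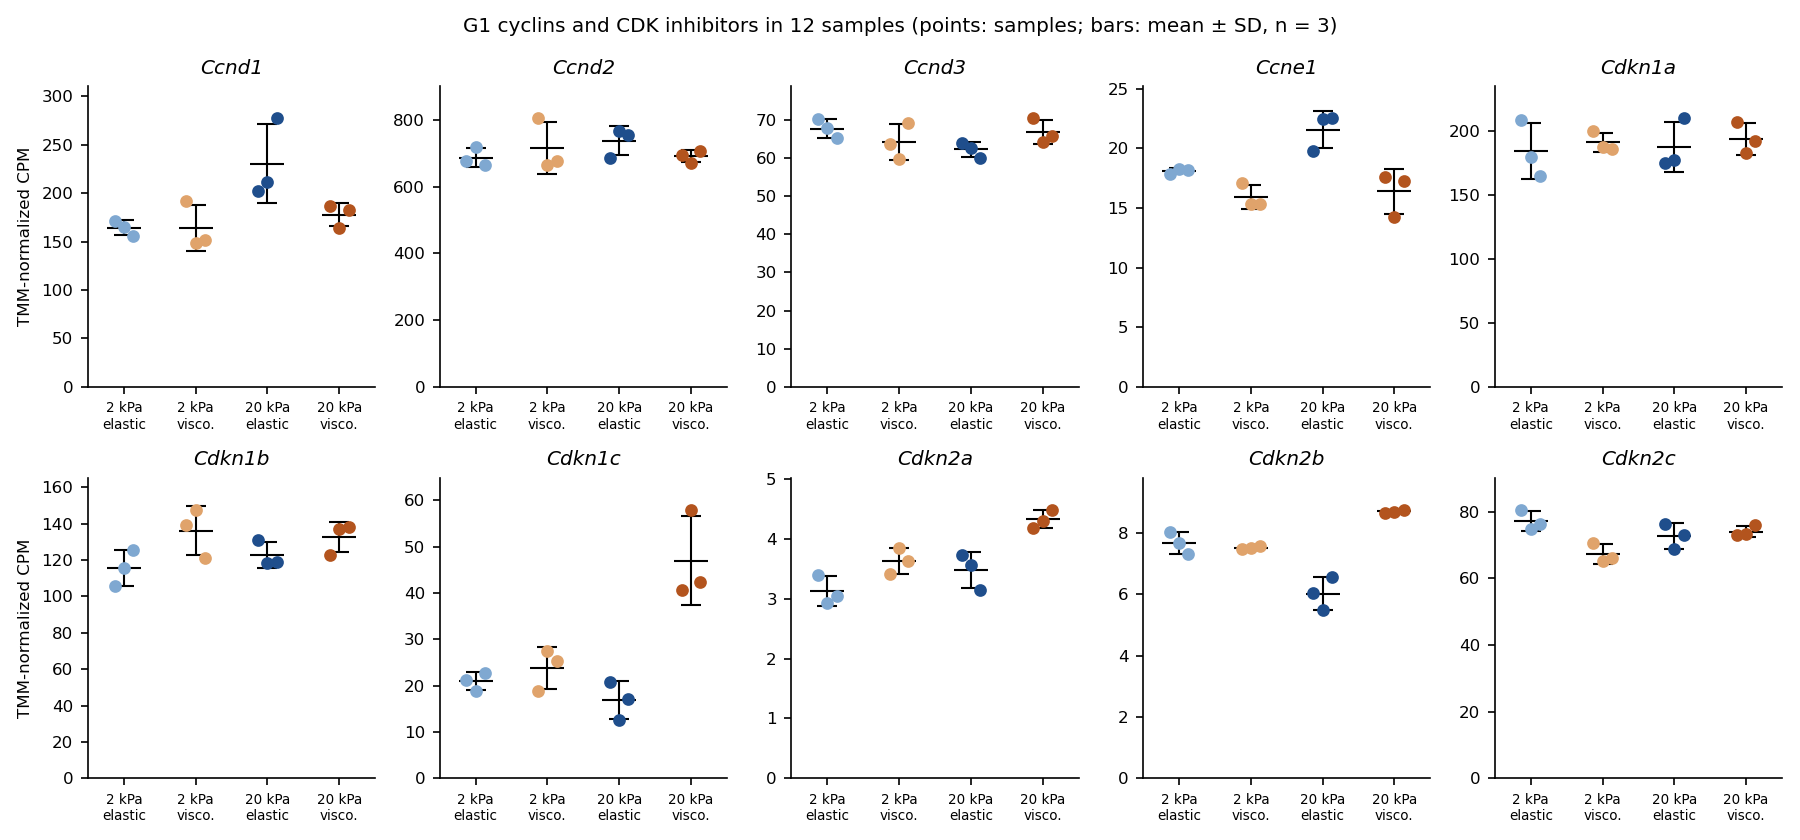
CPM after TMM normalization (y axis, from 0) of the 10 genes in each of the 12 samples (points), by gel (x axis), with the mean and SD of 3 samples as bars. The 3 Cdkn1c values on 20-kPa viscoelastic gels, 40.6 to 57.9 CPM, lie above all other samples, and the 3 Ccnd1 values on 20-kPa elastic gels, 203 to 278 CPM, lie above those of the other groups.

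Of the 10 genes, 6 were called in at least 1 of the 4 comparisons of a single factor, at a BH-adjusted p under 0.05 in edgeR's quasi-likelihood test, beside 45.7% of all tested genes, and 4 (Ccnd2, Ccnd3, Cdkn1a and Cdkn1b) in none. At 20 kPa, 5 of the 10 genes (50%) differed between viscoelastic and elastic gels, beside 33.5% of all tested genes. At 2 kPa the same comparison called 1 gene (10%), beside 19.9% of all genes. Stiffness, as 20 against 2 kPa, called 2 genes (20%) on elastic gels, beside 14% of all genes, and 1 gene (10%) on viscoelastic gels, beside 2.28% of all genes. With so few genes, these shares are counts, and each gene is given on its own in what follows.

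By direction, 3 of the genes were higher and 2 lower on viscoelastic gels at 20 kPa, where 17.4% of all genes were higher and 16.1% lower. At 2 kPa 0 were higher and 1 lower, where 8.77% of all genes were higher and 11.1% lower. On elastic gels 1 was higher and 1 lower at 20 than at 2 kPa, beside 6.81% and 7.14% of all genes, and on viscoelastic gels 1 was higher and 0 lower, beside 1.58% and 0.695%. The median log2 fold change of the 10 genes was 0.08 for viscoelasticity at 20 kPa, 0.02 for viscoelasticity at 2 kPa, 0.05 for stiffness on elastic gels and 0.09 for stiffness on viscoelastic gels. Over all tested genes these medians were 0.02, -7.5e-05, -0.01 and 0.01. With scaling by total counts, the split of all genes at 2 kPa went from 1275 higher and 1617 lower to 1675 and 1258, and that at 20 kPa from 2527 higher and 2339 lower to 2937 and 1901.

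**Figure D2:**
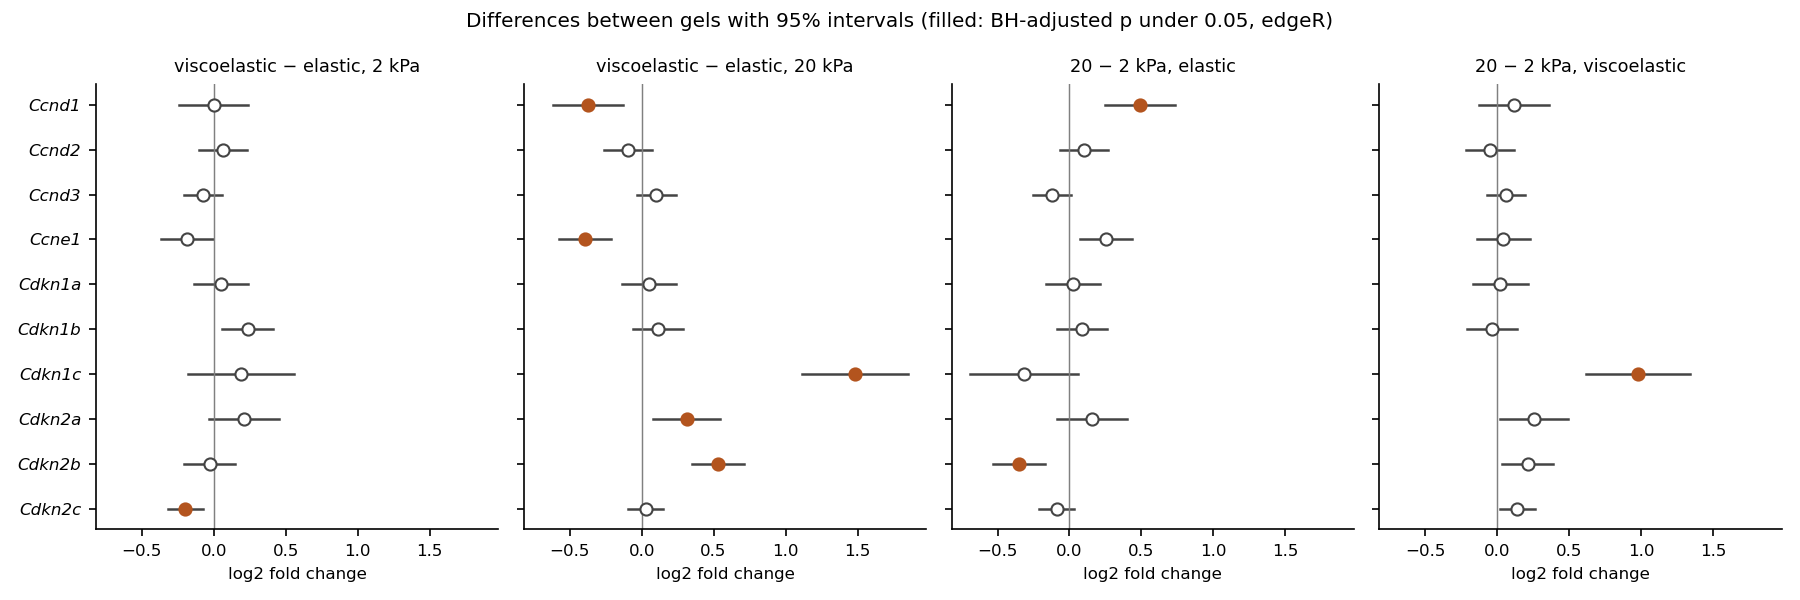
Log2 fold change (x axis) of each gene (y axis) in the 4 comparisons of a single factor, with its 95% interval as a line. Filled points mark the 9 calls (BH-adjusted p under 0.05, edgeR), 5 of them for viscoelasticity at 20 kPa, where Cdkn1c lies furthest from 0 at 1.48.

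Ccnd1, the D cyclin that growth factor and adhesion signals induce most directly, was highest on stiff elastic gels. It measured 172, 165 and 156 CPM on 2-kPa elastic gels and 192, 149 and 152 CPM on 2-kPa viscoelastic gels. On 20-kPa elastic gels it measured 203, 212 and 278 CPM, and on 20-kPa viscoelastic gels 187, 165 and 183 CPM. The 20-kPa elastic samples lay above all others, with the third sample well above its 2 companions, and the other 3 groups overlapped. On elastic gels Ccnd1 rose with stiffness by a log2 fold change of 0.49 ± 0.11 (SE), from 164 ± 7.88 to 231 ± 40.9 CPM (SD, 3 samples each), with an adjusted p of 0.0103 in edgeR. At 20 kPa it was lower on viscoelastic than on elastic gels, at -0.37 ± 0.11 (adjusted p = 0.0200). Both calls leaned on the third 20-kPa elastic sample: without it the log2 fold changes were 0.33 (adjusted p = 0.0533) and -0.22 (adjusted p = 0.125), and without the second 20-kPa viscoelastic sample the latter comparison had an adjusted p of 0.0759. At 2 kPa the log2 fold change was -0.00, with a 95% interval of -0.24 to 0.24, and with stiffness on viscoelastic gels it was 0.12 (interval -0.12 to 0.36). In the order of the group means, 20-kPa viscoelastic, 2-kPa elastic and 2-kPa viscoelastic gels did not pass the test between neighbours. The exons of Ccnd1 (chr7:144929931-144939925, minus strand, mm10) share 1100 bases with LTO1 on the opposite strand, which had 5648 counts in all 12 samples together against 5680 to 11257 for Ccnd1 in a single sample, and whether reads were counted by strand is not given.

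Ccnd2 and Ccnd3, the other D cyclins, passed the test in none of the 7 comparisons made. Ccnd2 ranged from 664 to 805 CPM over the 12 samples, and its highest and lowest group means differed 1.07-fold. Ccnd3 ranged from 59.8 to 70.5 CPM, with group means that differed 1.09-fold. The 95% intervals in the 4 comparisons of a single factor stayed between -0.26 and 0.27 on the log2 scale for Ccnd2 and between -0.25 and 0.24 for Ccnd3, and all of them included 0. Ccnd3 shares 361 exon bases with Bysl on the opposite strand. Bysl had 11781 counts in all 12 samples together, against 2373 to 3011 for Ccnd3 in a single sample.

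Among the D cyclins, compared per kilobase, Ccnd2 made up most of the family in every group. Its share was 63.1% ± 1.201 (SD, n = 3) on 2-kPa elastic, 64.4% ± 0.344 on 2-kPa viscoelastic, 58.4% ± 3.10 on 20-kPa elastic and 61.8% ± 1.05 on 20-kPa viscoelastic gels. The share of Ccnd1 was 30.2% ± 1.01, 29.4% ± 0.948, 36.3% ± 3.56 and 31.8% ± 0.971 in the same order. Its largest share was thus on 20-kPa elastic gels, where the 3 samples held 33.6% to 40.3%, above the 28.7% to 32.6% of the other samples. Ccnd3 held 5.31% to 6.68% of the family as a group mean. These shares are descriptions that depend on the merged exon lengths, the longer for Ccnd3 as given above, and were not tested.

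Ccne1, the cyclin that activates CDK2 and is itself an E2F target, was highest on 20-kPa elastic gels and lower on viscoelastic gels. It measured 17.9, 18.3 and 18.2 CPM on 2-kPa elastic gels and 17.1, 15.3 and 15.3 CPM on 2-kPa viscoelastic gels. On 20-kPa elastic gels it measured 19.8, 22.4 and 22.5 CPM, and on 20-kPa viscoelastic gels 17.6, 14.2 and 17.3 CPM. At each stiffness every viscoelastic sample was below every elastic sample. Groups that do not overlap, in either direction, were common: 36.3% of all tested genes at 2 kPa and 49.9% at 20 kPa. At 20 kPa Ccne1 fell by 0.40 ± 0.08 on the log2 scale (SE), from 21.6 ± 1.58 to 16.4 ± 1.89 CPM (adjusted p = 0.00265), and the call held in all 18 alternatives, with adjusted p from 0.000192 to 0.0150. At 2 kPa the log2 fold change was -0.19 (interval -0.37 to -0.01), with an unadjusted p of 0.0442 and an adjusted p of 0.135. Stiffness on elastic gels gave 0.25 (interval 0.07 to 0.43) with an adjusted p of 0.0607, which moved to 0.0435 with DESeq2's Wald test. On viscoelastic gels it gave 0.04 (interval -0.14 to 0.23). No 2 neighbours in the order of its 4 group means passed the test, whereas the ends of that order, 20-kPa elastic and 2-kPa viscoelastic gels, differed by -0.44 ± 0.08 (adjusted p = 0.00256).

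The stretch of 120 bases that ends just before the start of Ccne1 is shown because Ccne1 was called lower on viscoelastic gels at 20 kPa, as Ccnd1 was (RefSeq, GRCm38.p6, chr7:38107491-38107610, minus strand). Capitals mark the GC box word GGGCGG, searched on both strands.
Ccne1: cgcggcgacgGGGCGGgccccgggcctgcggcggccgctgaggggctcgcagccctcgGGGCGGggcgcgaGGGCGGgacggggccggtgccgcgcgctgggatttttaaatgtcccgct
The GC box word occurred 4 times in the 250 bases before this start, 3 of them in the stretch shown, and 32.7% of the 32851 promoter windows of all genes held at least 1. None of the E2F words TTTCCCGC, TTTCGCGC, TTTGCCGC and TTTGGCGC was in those 250 bases, as in all but 1.86% of windows, and the words CCAAT (33.8% of windows), TATAAA (12.4%) and TTTGAA (16%, a cell cycle homology word) were not in it either. Windows were found for 7 of the 10 genes and not for Ccnd1, Ccnd2 and Cdkn1c.

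Cdkn1c, the CIP/KIP inhibitor p57, an imprinted gene known for arrest during differentiation, showed the widest range of the 10 genes. It measured 21.2, 18.9 and 22.7 CPM on 2-kPa elastic gels and 18.8, 27.4 and 25.3 CPM on 2-kPa viscoelastic gels. On 20-kPa elastic gels it measured 20.8, 12.6 and 17.01 CPM, and on 20-kPa viscoelastic gels 40.6, 57.9 and 42.4 CPM. The 3 stiff viscoelastic samples stood above the other 9, which overlapped between groups. At 20 kPa Cdkn1c rose 2.79-fold on viscoelastic gels, from 16.8 ± 4.10 to 47.0 ± 9.55 CPM, a log2 fold change of 1.48 ± 0.17 (SE, adjusted p = 0.000101 in edgeR). The call held in all 18 alternatives, with log2 fold changes of 1.30 to 1.65. With stiffness on viscoelastic gels it rose 1.97-fold, at 0.98 ± 0.17 (adjusted p = 0.0168), a call that was lost without the third 20-kPa viscoelastic sample at a like size (1.05, adjusted p = 0.0707). At 2 kPa viscoelasticity gave 0.19 (interval -0.18 to 0.56), and stiffness on elastic gels gave -0.32 (interval -0.69 to 0.06, adjusted p = 0.258). Of the 2039 exon bases of Cdkn1c, 625 are shared with Gm44732 on the opposite strand. Gm44732 has no row in the count table, and whether reads were counted by strand is not given.

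The chondrocyte markers moved in the same direction as Cdkn1c at 20 kPa: their sum was 3916 to 3966 CPM on elastic and 4219 to 5398 CPM on viscoelastic gels, and 1 of the 3 tested was called higher. On 2-kPa gels, where Cdkn1c was at 18.8 to 27.4 CPM, that sum was 4123 to 5406 CPM. The fibroblast markers summed at 20 kPa to 23733 to 25715 CPM (elastic) and 27094 to 29275 CPM (viscoelastic), with 4 of 10 called higher and 1 lower. Of all tested genes 17.4% were higher and 16.1% lower in that comparison. The part of either in the Cdkn1c result was not tested.

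Cdkn1a and Cdkn1b passed the test in none of the 7 comparisons. Cdkn1a, the p53 target that blocks CDK2, was level across gels, with group means of 184 ± 22.1, 191 ± 7.59, 187 ± 19.6 and 194 ± 12.4 CPM on 2-kPa elastic, 2-kPa viscoelastic, 20-kPa elastic and 20-kPa viscoelastic gels. Its 4 log2 fold changes for a single factor lay between 0.02 and 0.05, with intervals that stayed between -0.17 and 0.24. Cdkn1b, the inhibitor of quiescent cells, measured 106, 116 and 125 CPM on 2-kPa elastic gels and 139, 148 and 121 CPM on 2-kPa viscoelastic gels. This difference was 0.23 ± 0.08 on the log2 scale (interval 0.06 to 0.41), and its adjusted p of 0.0559 moved to 0.0319 with DESeq2's Wald test and to 0.0241 with scaling by total counts. On 20-kPa elastic gels Cdkn1b was at 131, 118 and 119 CPM and on 20-kPa viscoelastic gels at 123, 137 and 138 CPM, groups that overlapped (log2 fold change 0.11, adjusted p = 0.310).

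Within the CIP/KIP family, per kilobase, Cdkn1a held 51.2% to 59.9% and Cdkn1b 27.3% to 31.3% as group means. Cdkn1c held 11.7% ± 1.17 on 2-kPa elastic, 12.3% ± 2.31 on 2-kPa viscoelastic, 9.35% ± 2.06 on 20-kPa elastic and 21.5% ± 3.78 on 20-kPa viscoelastic gels. Its 3 values on 20-kPa viscoelastic gels, 18.9% to 25.8%, lay above the 7.54% to 13.6% of the other samples. The summed level of the family was 87.6 ± 4.09, 95.4 ± 3.61, 88.0 ± 5.69 and 107 ± 2.73 CPM per kb in the same order of groups.

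**Figure D3:**
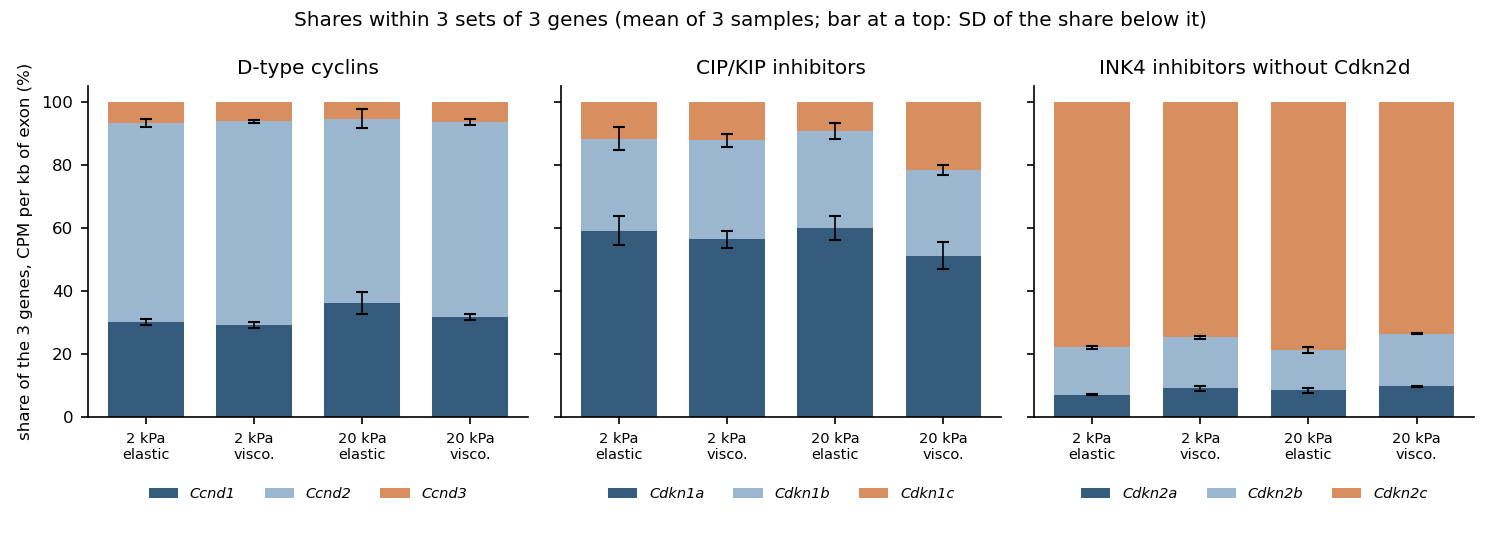
Share of each gene (y axis, percent of the 3 genes of a panel, from CPM per kb of exon) in the D-type cyclins, the CIP/KIP inhibitors and the INK4 inhibitors without Cdkn2d, as means of 3 samples per gel (x axis); error bars give the SD of the share below them. Cdkn1c takes 21.5% of its family on 20-kPa viscoelastic gels against 9.35% to 12.3% on the other gels, and Ccnd1 36.3% of the D cyclins on 20-kPa elastic gels against 29.4% to 31.8%.

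Cdkn2b, the INK4 inhibitor p15, which TGF-beta is known to induce, was lowest on stiff elastic gels and highest on stiff viscoelastic gels. It measured 8.02, 7.66 and 7.30 CPM on 2-kPa elastic gels and 7.48, 7.52 and 7.56 CPM on 2-kPa viscoelastic gels. On 20-kPa elastic gels it measured 6.02, 5.47 and 6.56 CPM, and on 20-kPa viscoelastic gels 8.66, 8.69 and 8.75 CPM. The 20-kPa elastic samples lay below all others and the 20-kPa viscoelastic samples above all others, while the 2-kPa groups overlapped. At 20 kPa Cdkn2b rose 1.45-fold on viscoelastic gels, at 0.53 ± 0.08 (SE, adjusted p = 0.000383), and did so in all 18 alternatives (0.47 to 0.60). On elastic gels it fell with stiffness, by 0.35 ± 0.09 on the log2 scale (adjusted p = 0.0134), and the call was lost without the first 2-kPa elastic sample (adjusted p = 0.0611) or the second 20-kPa elastic sample (0.0675). At 2 kPa the log2 fold change with viscoelasticity was -0.03 (interval -0.21 to 0.15), and with stiffness on viscoelastic gels 0.21 (interval 0.03 to 0.39, adjusted p = 0.182). In the order of the group means, the step from 2-kPa viscoelastic down to 20-kPa elastic gels passed the test (adjusted p = 0.0149), and the 2 steps above it did not.

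Cdkn2a lies 11646 bases from Cdkn2b on chromosome 4 and was the lowest of the 10 genes. Its counts merge the transcripts of p16, which binds CDK4 and CDK6, and of p19, which protects p53, and these cannot be told apart here. It measured 3.40, 2.94 and 3.05 CPM on soft elastic gels and 3.41, 3.84 and 3.63 CPM on soft viscoelastic gels. On stiff elastic gels it measured 3.74, 3.56 and 3.16 CPM, and on stiff viscoelastic gels 4.19, 4.31 and 4.49 CPM. The 20-kPa viscoelastic samples were the highest 3 of the 12, and the 20-kPa elastic group overlapped both 2-kPa groups. At 20 kPa Cdkn2a rose by 0.31 ± 0.11 (SE, adjusted p = 0.0405) on viscoelastic gels. The log2 fold change stayed between 0.25 and 0.35, but the call was lost with DESeq2's Wald test (adjusted p = 0.0787), with no low-count filter (0.0941), with a replicate block (0.0616) and with the 2 groups fitted alone (0.0501). It was also lost without 1 of 6 samples: the third 2-kPa viscoelastic (0.0503), replicate 2 (0.0810) or 3 (0.158) on 20-kPa elastic, or replicate 1 (0.0657), 2 (0.0848) or 3 (0.116) on 20-kPa viscoelastic gels. The other comparisons of a single factor gave 0.21 (viscoelasticity at 2 kPa, adjusted p = 0.206), 0.15 (stiffness on elastic gels, 0.406) and 0.26 (stiffness on viscoelastic gels, 0.220).

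The 120 bases before the starts of Cdkn2b and of both Cdkn2a transcripts are shown because these neighbours were both higher on stiff viscoelastic gels and the count of Cdkn2a joins 2 promoters (RefSeq, GRCm38.p6, minus strand). They lie at chr4:89311033-89311152 for Cdkn2b, at chr4:89294620-89294739 for the upstream and at chr4:89282193-89282312 for the downstream start of Cdkn2a. Capitals mark the E2F word TTTCCCGC and the GC box word GGGCGG.
Cdkn2b: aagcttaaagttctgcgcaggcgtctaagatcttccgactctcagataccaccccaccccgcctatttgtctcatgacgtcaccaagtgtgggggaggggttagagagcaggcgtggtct
Cdkn2a upstream start: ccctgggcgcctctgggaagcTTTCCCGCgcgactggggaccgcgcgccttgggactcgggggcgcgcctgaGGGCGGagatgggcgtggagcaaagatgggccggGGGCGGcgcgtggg
Cdkn2a downstream start: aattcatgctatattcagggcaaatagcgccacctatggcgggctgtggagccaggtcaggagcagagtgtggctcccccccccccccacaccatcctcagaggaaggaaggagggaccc
The upstream Cdkn2a stretch held 1 E2F word, found in 1.86% of all windows, and 2 GC box words. The downstream stretch and the Cdkn2b stretch held none of the 5 kinds of word searched, and the 250 bases before Cdkn2b held 1 TTTGAA word on the minus strand of the window. A match is a matter of letters only and was not read as a binding site.

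Cdkn2c, the most abundant of the 3 INK4 genes followed here and the 1 gene of the 10 called at 2 kPa, measured 80.6, 74.9 and 76.4 CPM on 2-kPa elastic gels and 70.7, 65.3 and 66.1 CPM on 2-kPa viscoelastic gels. The groups did not overlap, as for 36.3% of all tested genes, and Cdkn2c fell by 0.20 ± 0.06 on the log2 scale (SE, adjusted p = 0.0236), or 12.9%. The call was lost with scaling by total counts (adjusted p = 0.0595), with no low-count filter (0.0574) and with the 2 groups alone (0.0707). It was also lost without the first 2-kPa elastic (0.112), the second 2-kPa viscoelastic (0.0626) or the third 2-kPa viscoelastic sample (0.0763). On 20-kPa gels Cdkn2c ranged from 68.7 to 76.3 CPM on elastic and from 72.9 to 76.1 CPM on viscoelastic gels, which overlapped (log2 fold change 0.03, interval -0.09 to 0.15). Stiffness on viscoelastic gels gave 0.14 (interval 0.02 to 0.26, adjusted p = 0.205). Of the summed level of these 3 INK4 genes per kilobase, which leaves out the fourth, Cdkn2d (group means of 15.03 to 17.1 CPM), Cdkn2c held 73.5% to 78.7% as a group mean, Cdkn2b 12.6% to 16.7% and Cdkn2a 7.22% to 9.84%.

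Whether viscoelasticity acted differently on soft and stiff gels was asked with the interaction, the log2 fold change at 20 kPa minus that at 2 kPa. Of the 10 genes, 2 (20%) passed, beside 7.56% of all tested genes. For Cdkn1c the interaction was 1.29 ± 0.24 (SE, adjusted p = 0.00477), made of 1.48 at 20 kPa and 0.19 at 2 kPa. For Cdkn2b it was 0.56 ± 0.12 (adjusted p = 0.0101), made of 0.53 and -0.03. Both are CDK inhibitors, both were higher on viscoelastic gels at 20 kPa, and both calls held in all 17 alternatives. Cdkn2c gave 0.23 (interval 0.05 to 0.40, adjusted p = 0.105) and Ccnd1 -0.37 (interval -0.71 to -0.03, adjusted p = 0.181), and the intervals of the other 6 genes included 0. The difference for Ccne1, which was called at 20 kPa and not at 2 kPa, was -0.21 (interval -0.47 to 0.05), so its 2 viscoelastic effects were not shown to differ.

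The pairs of gels that differ in both factors share samples with the comparisons above, and their values are given beside them. Between 20-kPa viscoelastic and 2-kPa elastic gels 2 genes passed (20%, beside 31.4% of all genes): Cdkn1c rose 2.24-fold (log2 1.17 ± 0.17, adjusted p = 0.000223) and Cdkn2a 1.38-fold (0.47 ± 0.11, adjusted p = 0.00595). Between 2-kPa viscoelastic and 20-kPa elastic gels 3 genes passed (30%, beside 22.8%), with Ccnd1 at -0.49 ± 0.11 (adjusted p = 0.00722), Ccne1 at -0.44 (given above) and Cdkn2b at 0.32 ± 0.09 (adjusted p = 0.0149). The Cdkn2b call was lost without the third 2-kPa viscoelastic (0.0509) or the second 20-kPa elastic sample (0.0742) and with the 2 groups fitted alone (0.0585). Cdkn1c gave 0.50 there (adjusted p = 0.0509).

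The partners and relatives of these genes were looked at in a list of 35 other tested genes of the G1/S machinery. At 20 kPa 3 of them (8.57%) were higher and 12 (34.3%) lower on viscoelastic gels, beside 17.4% and 16.1% of all tested genes. The list median was -0.11. Those that fell with the lowest adjusted p were Rbl1, which encodes the pocket protein p107 (-0.70, adjusted p = 0.000214), Ccna2, the cyclin of S phase (-0.59, 0.000975), and the repressor E2f7 (-0.78, 0.000978). The 3 that rose were the ubiquitin ligase parts Skp1 (0.29, 0.0019) and Cul1 (0.17, 0.0258), and Ccnh (0.16, 0.0343), a part of the CDK-activating kinase. Of the kinases and paralogs of the 10 genes, chosen for that relation after their values were seen, Cdk6 (-0.39, 0.00353), Cdk2 (-0.37, 0.00127) and the second cyclin E gene Ccne2 (-0.71, 0.00243) fell. The fourth INK4 gene Cdkn2d fell too (-0.19, 0.0414), and Cdk4 stood at 0.12 (adjusted p = 0.152). The count of 15 called was 8 without the third 20-kPa elastic and 9 without the second 20-kPa viscoelastic sample.

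At 2 kPa 2 of the 35 (5.71%) were higher and 5 (14.3%) lower on viscoelastic gels, beside 8.77% and 11.1% of all tested genes. E2f8 (-0.56, adjusted p = 0.00251), Rbl1 (-0.41, 0.0107) and Ccna2 (-0.44, 0.0107) fell, and Mnat1 (0.31, 0.0049), a part of the CDK-activating kinase, and the repressor E2f6 (0.26, 0.0317) rose. The count of 7 was 4 without the first or the second 2-kPa elastic sample and 2 without the third 2-kPa viscoelastic sample. With stiffness on elastic gels 6 (17.1%) were higher and 0 lower, beside 6.81% and 7.14% of all tested genes. Among the 6 were Cks1b (0.34, 0.00429), E2f1 (0.27, 0.00824) and E2f6 (0.34, 0.0111). The count of 6 was 3 without the second 2-kPa elastic, 11 without the first 2-kPa viscoelastic and 10 without the second 20-kPa viscoelastic sample. With stiffness on viscoelastic gels edgeR's adjusted test called 0, an unadjusted p under 0.05 counted 7 higher and 0 lower, and DESeq2 called 3 higher. In the interaction edgeR called 0, against 1 higher and 4 lower at an unadjusted p under 0.05 and 1 lower with DESeq2. These unadjusted and DESeq2 counts have no share of all genes beside them and were not read as results about the list.

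Genes used in S phase and mitosis moved as a larger block. At 20 kPa 28 of 30 (93.3%) were lower on viscoelastic gels and 0 higher, beside 16.1% and 17.4% of all tested genes. The list median was -0.57. Mcm3 of the replicative helicase (-0.60, adjusted p = 0.000119), Rrm1 of ribonucleotide reductase (-0.65, 0.000124) and the spindle checkpoint kinase Bub1 (-0.84, 0.00013) led. At 2 kPa 16 (53.3%) were lower and 0 higher, beside 11.1% and 8.77% of all genes, with a median of -0.30. Mcm5 (-0.48, 0.00147), Mcm2 (-0.45, 0.00175) and the licensing factor Cdt1 (-0.52, 0.00457) led there. On elastic gels 23 (76.7%) were higher at 20 than at 2 kPa and 0 lower, beside 6.81% and 7.14% of all genes. The median was 0.34, and Rrm2 (0.53, 0.000946), Mcm3 (0.41, 0.00234) and Mcm7 (0.36, 0.00253) led. The count of 23 was 14 without the second and 11 without the third 2-kPa elastic sample, and 10 without the third 20-kPa elastic sample. On viscoelastic gels edgeR called 0, with 5 higher at an unadjusted p under 0.05 and 0 called by DESeq2. The interaction called Mcm7 alone (-0.32, adjusted p = 0.0483). That is 3.33% of the list lower, near the 3.12% of all tested genes. Lower at an unadjusted p under 0.05 were 12, and with DESeq2 4. No share of all genes is given here for the unadjusted and DESeq2 counts, so they were not read as results about the list.

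Cdkn1a is a p53 target, and the list of 29 other p53 targets held calls in both directions. More were higher than lower with viscoelasticity at 2 kPa and with stiffness on elastic gels. At 2 kPa 7 (24.1%) were higher on viscoelastic gels and 1 (3.45%) lower, beside 8.77% and 11.1% of all tested genes. Plk2 (0.47, adjusted p = 0.000844) and Perp (0.53, 0.00842) led, and Sesn1 was lower (-0.21, 0.0294). At 20 kPa 4 (13.8%) were higher and 5 (17.2%) lower, near the 17.4% and 16.1% of all tested genes. Sesn1 (0.34, 0.00101), Fas (0.34, 0.00836) and Plk2 (0.24, 0.023) were among the former. Tnfrsf10b (-0.32, 0.00223), Psrc1 (-0.25, 0.00335) and Zmat3 (-0.42, 0.0035) were among the latter. With stiffness on elastic gels 5 (17.2%) were higher, led by Perp (0.80, 0.000871), and 1 (3.45%), Sesn1, lower (-0.43, 0.000495). Of all genes 6.81% were higher and 7.14% lower. On viscoelastic gels Tigar was higher (0.32, 0.0362) and Psrc1 lower (-0.24, 0.037), beside 1.58% and 0.695% of all genes. In the interaction Sesn1 passed upward (0.55, 0.00162) and Psrc1 (-0.47, 0.00173) and Perp (-0.96, 0.00391) downward, beside 4.45% and 3.12% of all genes. The count of 8 at 2 kPa was 4 or 5 without any 1 sample other than replicate 2 on 2-kPa viscoelastic, replicates 1 and 3 on 20-kPa elastic and replicate 2 on 20-kPa viscoelastic gels. The count of 6 on elastic gels was 3 without replicate 1 or 2 on 2-kPa elastic or replicate 3 on 20-kPa elastic gels. The 2 calls on viscoelastic gels became 0 or 1 without any 1 sample other than replicates 1 and 3 on 2-kPa elastic and replicates 1 and 3 on 20-kPa elastic gels, and the 3 in the interaction became 6 without replicate 1 on 20-kPa elastic gels.

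Ccnd1 is induced by mitogens, and the list of 26 mitogen-induced genes was mixed with viscoelasticity. With stiffness on elastic gels its calls were all upward. At 20 kPa 5 (19.2%) were higher on viscoelastic gels and 6 (23.1%) lower, beside 17.4% and 16.1% of all tested genes. The early response genes Egr2 (1.25, adjusted p = 0.00167) and Egr1 (0.77, 0.00289) and the feedback inhibitor Spry2 (0.40, 0.0181) led upward. Fosl1 (-0.75, 0.00347), Etv4 (-0.66, 0.00385) and Dusp4 (-0.71, 0.00503) led downward. At 2 kPa 2 (7.69%) were higher, Myc (0.28, 0.0131) and Fosl2 (0.19, 0.0356), beside 8.77% of all genes. Another 2 (7.69%), Spred1 (-0.39, 0.00371) and Dusp4 (-0.69, 0.0142), were lower, beside 11.1%. On elastic gels 6 (23.1%) were higher and 0 lower at 20 than at 2 kPa, beside 6.81% and 7.14% of all genes. Areg (1.504, 0.00715), Myc (0.31, 0.0112) and Etv4 (0.62, 0.0128) led. Areg was near the floor, at 0.326 ± 0.0357 CPM on 2-kPa and 0.939 ± 0.426 CPM on 20-kPa elastic gels (SD). The count of 6 was 3 without the second or the third 2-kPa elastic and 1 without the third 20-kPa elastic sample. On viscoelastic gels edgeR called 0, with 8 higher and 1 lower at an unadjusted p under 0.05 and 1 higher with DESeq2. The latter counts have no share of all genes beside them and were not read as a result about the list. The interaction called Fosl2 alone (-0.34, adjusted p = 0.0215), beside 7.56% of all genes. The count of 4 at 2 kPa was 1 without the first 2-kPa elastic, 2 without the third 2-kPa viscoelastic and 8 without the second 20-kPa viscoelastic sample.

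**Figure D4:**
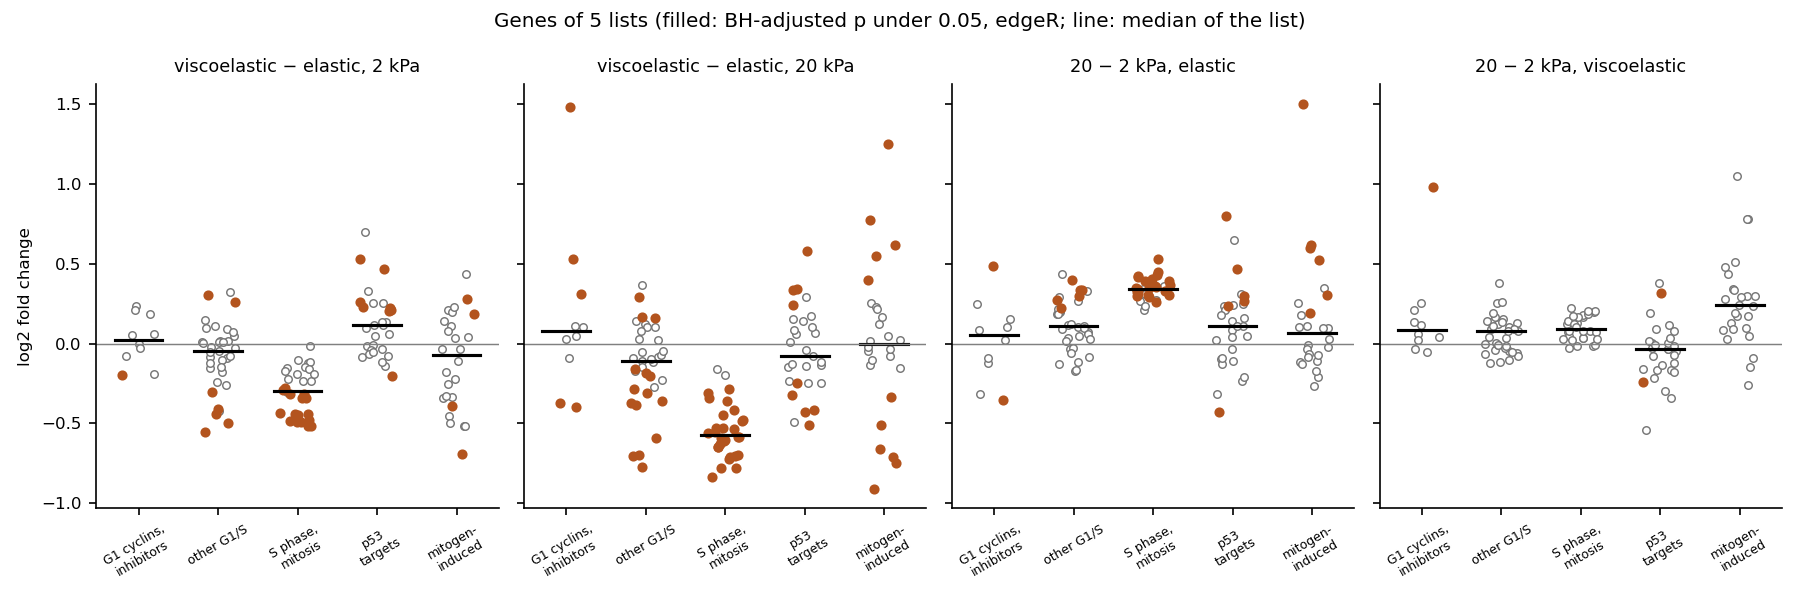
Log2 fold change (y axis) of each gene of 5 lists (x axis) in the 4 comparisons of a single factor; filled points have a BH-adjusted p under 0.05 in edgeR and lines mark list medians. The S phase and mitosis genes lie together, with a median of -0.57 for viscoelasticity at 20 kPa and 0.34 for stiffness on elastic gels, while the 10 G1 genes spread around 0 with Cdkn1c at 1.48 and 0.98.

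For the 3 members with the lowest adjusted p in any comparison, the tested genes whose log2 CPM was most like theirs over the 12 samples were looked up by Pearson's r. These r values describe samples that share 4 groups and carry no test. Closest to Cdkn1c were Socs2, a feedback inhibitor of cytokine signalling (0.968), Mylk, the myosin light chain kinase (0.963), and the matrix proteoglycan Bgn (0.961), and 92 genes had an r above 0.9. At 20 kPa their log2 fold changes on viscoelastic gels were 0.88 (Socs2), 0.66 (Mylk) and 0.27 (Bgn), all smaller than the 1.48 of Cdkn1c. Closest to Cdkn2b were Cdc42ep3, an effector of the GTPase CDC42 (0.946), Nme4 (0.926) and Dnttip1 (0.926), with 8 genes above 0.9. Closest to Ccne1 were the helicase Blm (0.987), the repressor E2f7 (0.986) and Dtl (0.984), which takes part in the destruction of the licensing factor CDT1, with 353 genes above 0.9. At 20 kPa these 3 fell by more than the 0.40 of Ccne1, with log2 fold changes of -0.68 (Blm), -0.78 (E2f7) and -0.65 (Dtl).

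**Figure D5:**
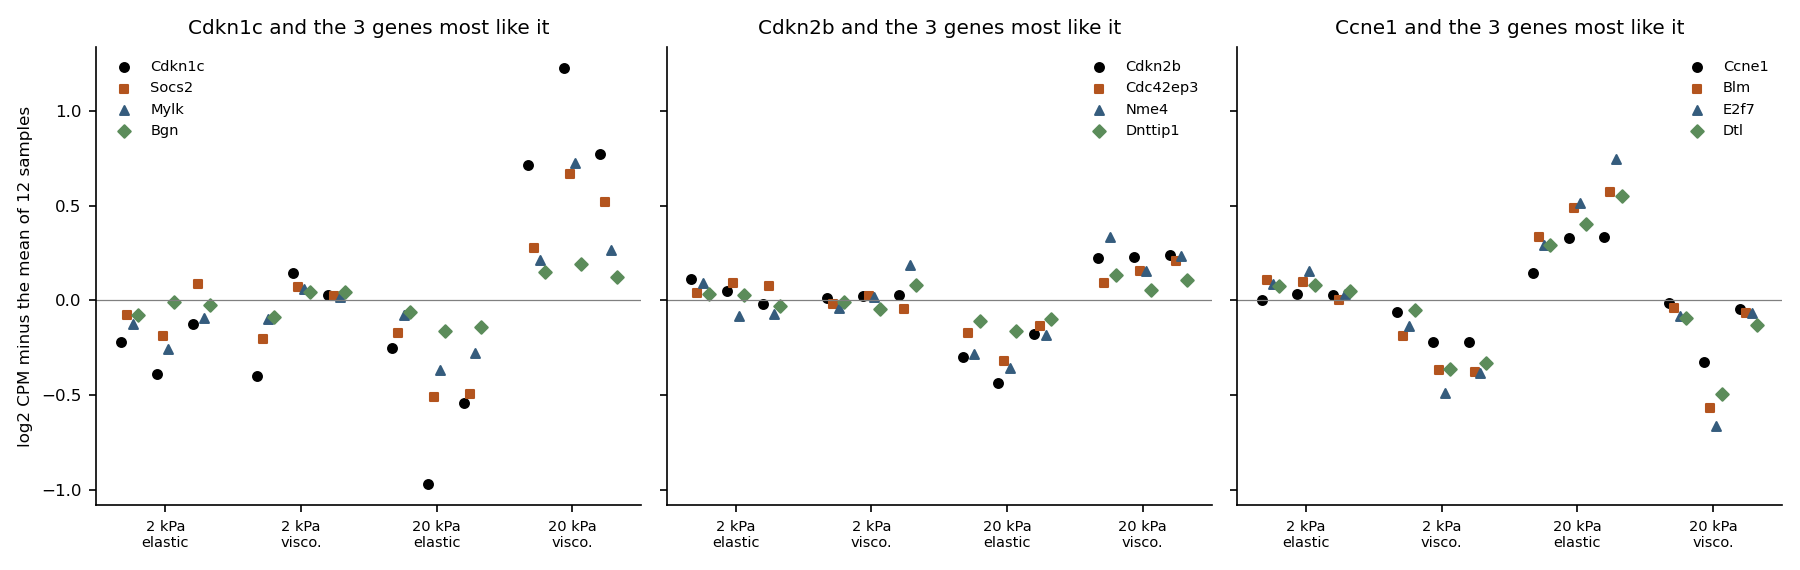
Log2 CPM minus the mean of the 12 samples (y axis) for Cdkn1c, Cdkn2b and Ccne1 (black circles) and the 3 genes most like each, in the 3 samples of each gel (x axis). Cdkn1c and its companions stand highest on 20-kPa viscoelastic gels, Cdkn2b and its companions lowest on 20-kPa elastic gels, and Ccne1 and its companions highest on 20-kPa elastic gels.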

How the data were processed

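The authors isolated poly(A) RNA, trimmed the reads (Trimmomatic), aligned them (STAR, mm10), assigned them to GENCODE genes (featureCounts) and deposited 1 table of raw counts for the 12 samples, which they tested with DESeq2. The annotation release, the strand setting and the handling of multimapping reads are not given in the sources used here. The other assays of the study were not analysed here.

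Counts were tested in R 4.3.3 with edgeR 4.0.16: low counts were removed by filterByExpr, given the 4 groups (settings min.count 10, min.total.count 15 and large.n 10), libraries were scaled by TMM, and a quasi-likelihood fit of all 12 samples had a mean for each group, with Benjamini-Hochberg (BH) adjustment over the 14542 genes tested. Genes were called at an adjusted p under 0.05 with no minimum fold. An unadjusted p is named as such. Intervals cover 95%. CPM are TMM-normalized, and log2 CPM have a prior count of 2. Exon lengths, with all exons of a gene merged, and positions come from a GENCODE annotation of mm10 (lengths for 94.1% of tested genes). The biological coefficient of variation was 7.50%. Promoter windows are RefSeq's. The fit was tested on simulated data first.

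Each result was computed again with DESeq2's size factors, total counts alone, no low-count filter (every gene with at least 1 count), the Wald test of DESeq2 1.42.0, the replicate number as a block, the 2 groups compared alone and each sample left out in turn (18 alternatives, 17 for the interaction), and counts of the 10 genes also at an adjusted p under 0.01. Counts over the lists under these alternatives were added after the data were seen. Named genes are the 10 members, up to 3 called genes per list and direction with the lowest adjusted p in each comparison of a single factor, those called in the interaction, and the 3 genes most alike for 3 members. Outside this rule, Cdk2, Cdk4, Cdk6, Ccne2 and Cdkn2d were named as partners or paralogs and Slc22a18, Nap1l4 and Mtap as neighbours on the chromosome, and these were chosen after their values were seen. LTO1, Bysl and Gm44732 are named for exons they share with members. Ccnd2 (740 bases) and Cdkn1a (273 bases) also share exon bases with genes on the opposite strand, which have no row in the count table. The members and the lists were chosen with earlier results of these data known.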

Additional observations from a re-analysis of the deposited data

Results flagged for a closer look

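For 2 of the 10 genes the effect of viscoelasticity differed between stiffnesses by the test of that difference itself, edgeR's interaction term. Cdkn1c had an interaction of 1.29 on the log2 scale (95% interval 0.77 to 1.82, BH-adjusted p = 0.00477). Cdkn2b had an interaction of 0.56 (interval 0.31 to 0.81, BH-adjusted p = 0.0101). For both, 3 of 3 viscoelastic samples at 20 kPa lay above the elastic mean. The same held for Ccnd3, Cdkn1b and Cdkn2c, which were not called there. That count uses the 20-kPa groups alone, so it does not bear on a difference between stiffnesses.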

How the results depend on the processing

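Of 16 called results among the 10 genes, 9 kept their direction and call under every alternative tried: Cdkn1c and Cdkn2b for viscoelasticity at 20 kPa and for the interaction, Ccne1 for viscoelasticity at 20 kPa, Cdkn1c and Cdkn2a between 20-kPa viscoelastic and 2-kPa elastic gels, and Ccnd1 and Ccne1 between 2-kPa viscoelastic and 20-kPa elastic gels. No called result changed direction. At an adjusted p under 0.01 the counts of called genes were 0 (from 1) for viscoelasticity at 2 kPa, 3 (from 5) at 20 kPa, 0 (from 2) for stiffness on elastic gels, 0 (from 1) on viscoelastic gels and 1 (from 2) for the interaction. At 2 kPa DESeq2's Wald test called 2 and the 2 groups fitted alone 0. With each sample left out the counts ranged from 0 to 2 for viscoelasticity at 2 kPa, from 3 to 5 at 20 kPa, from 1 to 3 for stiffness on elastic gels, from 0 to 1 on viscoelastic gels and from 2 to 4 between 2-kPa viscoelastic and 20-kPa elastic gels. Log2 fold changes that changed sign were uncalled. Ccnd1 at 2 kPa (main -0.0021) gave 0.0032 with DESeq2's size factors, 0.035 with total counts, 0.0055 with no filter, 0.0020 with the Wald test and 0.0082 with the 2 groups alone. With total counts Cdkn2b at 2 kPa gave 0.0098 and Ccnd3 between 20-kPa viscoelastic and 2-kPa elastic gels 0.026. Leave-one-out values that crossed 0 ranged, for viscoelasticity at 2 kPa, from -0.13 to 0.064 (Ccnd1), -0.033 to 0.11 (Ccnd2), -0.023 to 0.15 (Cdkn1a) and -0.061 to 0.0058 (Cdkn2b). At 20 kPa they ranged from -0.016 to 0.14 (Cdkn1a) and -0.013 to 0.046 (Cdkn2c), and for stiffness on elastic gels from -0.067 to 0.12 (Cdkn1a). For stiffness on viscoelastic gels they ranged from -0.10 to 0.043 (Ccnd2), -0.014 to 0.14 (Ccne1), -0.029 to 0.063 (Cdkn1a) and -0.11 to 0.026 (Cdkn1b). Between 20-kPa viscoelastic and 2-kPa elastic gels they ranged from -0.013 to 0.045 (Ccnd2), -0.058 to 0.0094 (Ccnd3) and -0.0013 to 0.17 (Cdkn1a). Between 2-kPa viscoelastic and 20-kPa elastic gels they ranged from -0.14 to 0.0088 (Ccnd2), -0.014 to 0.093 (Ccnd3), -0.028 to 0.12 (Cdkn1a) and -0.0083 to 0.10 (Cdkn2a), and for the interaction from -0.098 to 0.088 (Cdkn1a). The cause of these changes was not tested. Over all genes, stiffness on viscoelastic gels called 331, but 653 with no filter, 757 with DESeq2, 154 with a replicate block, 38 with the 2 groups alone and 9 to 351 with a sample left out. Between 2-kPa viscoelastic and 20-kPa elastic gels 3312 became 2074 with the 2 groups alone. Total counts moved the split between 20-kPa viscoelastic and 2-kPa elastic gels from 2313 higher and 2256 lower to 2875 and 1684. Replicate numbers showed little pairing of the samples: 2 of 18 same-numbered pairs had a correlation of deviations over 0.1, and 5 of 12 samples correlated best with their own number. Both pairs over 0.1 were between 2-kPa and 20-kPa viscoelastic gels (0.18 for replicate 1 and 0.31 for replicate 2, against 0.048 for replicate 3). With a replicate block the counts of called genes were 1, 4, 2 and 1 for the 4 comparisons of a single factor, 2 and 3 for the pairs that differ in both, and 2 for the interaction, and the call lost was Cdkn2a at 20 kPa (0.31). Depth limits Cdkn2a most, at 111 to 183 counts a sample.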

Other observations

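Genes beside the inhibitors on the chromosome, chosen after their values were seen, were also read. At 20 kPa Slc22a18, 12686 bases from Cdkn1c, rose on viscoelastic gels (log2 0.66, edgeR's BH-adjusted p = 0.00581), and Nap1l4, 52529 bases away, gave -0.10 (adjusted p = 0.193). At 2 kPa Slc22a18 gave 0.42 (adjusted p = 0.0769), and its interaction was 0.24 (adjusted p = 0.591), unlike that of Cdkn1c. Mtap, 93390 bases from Cdkn2a on the side away from Cdkn2b, was lower on viscoelastic gels at 2 kPa (-0.28, adjusted p = 0.0123) and at 20 kPa (-0.20, adjusted p = 0.0442).

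Over the 12 samples, which share 4 groups, Pearson's r of log2 CPM was 0.80 between Ccnd1 and Ccne1, 0.81 between Cdkn1c and Cdkn2b and 0.77 between Cdkn1c and Cdkn2a. It was -0.73 between Ccne1 and each of Cdkn1c and Cdkn2b. Cdkn2a and Cdkn2b, neighbours on chromosome 4, had an r of 0.43. Ccnd1 and Cdkn2c had an r of 0.16.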
